A study of Mus musculus with 10 samples.

Results

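Ribosome footprints of puromycin-treated mouse embryonic stem cells (2 libraries) were compared with those of control cells (2 libraries). The members of the comparison were the coding transcripts whose annotated coding sequence, here called ORF, carried at least 100 normalized footprints in the mean of the control libraries. This rule kept 8532 of 14534 listed coding transcripts. All cells were CGR8, an embryonic stem cell line of strain 129, grown without feeder cells on gelatin with leukemia inhibitory factor. Treated cells received puromycin at 0.2 mg/ml for 20 min, control cells received no translation inhibitor, and the amount of DMSO was the same in all groups. Cycloheximide, which holds elongating ribosomes in place, was added to every lysate and wash after the cells had been cooled on ice. Nuclei and most mitochondria were removed before digestion with RNase I. The series also holds 2 libraries each with harringtonine (2 µg/ml, 10 min) and DMDA-PatA (1 µM, 10 min), and 2 whole transcriptome libraries of untreated cells. The study's methods call the 2 samples of a condition biological replicates, and p-values measure the spread between such pairs of libraries. The level of each mRNA after puromycin was not measured, and neither a change in mRNA nor one in the number or make-up of the cells can be told apart from a change in ribosomes per mRNA.

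Puromycin resembles the end of an aminoacyl-tRNA and enters the A site of the ribosome. The peptidyl transferase joins the growing chain to it, the unfinished chain is released, and the ribosome usually leaves the message. Initiation is not its direct target, so ribosomes can start again near the start codon and be released again. A footprint is the stretch of mRNA that a ribosome shields from RNase.

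The ORFs of the coding transcripts held 9104220 and 10614247 reads in the control libraries and 872713 and 1547460 reads with puromycin. The median member had 419 and 488 reads without drug and 38 and 65 with it. After the authors' scaling to spike-in RNA, 1 read counts as 1.18 and 0.906 normalized footprints in the controls and as 2.07 and 1.24 with puromycin. Values below are normalized footprints per ORF in control replicates 1 and 2 and puromycin replicates 1 and 2, in this order, and the share left is the puromycin mean as a percentage of the control mean. All 10 genes of a list of embryonic stem cell markers were members, with 45629 and 42772 footprints in sum in the controls. None of 7 listed primitive endoderm markers was a member (sums of 296 and 226), and 4 of 7 mesoderm and ectoderm markers were, among them the intermediate filament Nes (sums of 3039 and 3094). All 7 listed fibroblast markers were members, the collagen Col1a1 adding most, with 34835 and 32879 footprints in the controls and 9564 and 9086 with puromycin. The part of such cells in the results was not tested.

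The median inhibition of ORF footprints by puromycin was 6.29 fold. It was 6.82 and 5.93 fold when each puromycin library was set against the control library of the same number (SD 0.631, n = 2), which includes the spread of the controls. The median member kept 15.9% of its footprints (15.4% and 16.01% in the puromycin libraries against the control mean), and the spread between members was wide. The lower and upper quartiles were 9.78% and 25.8%, and the lowest and highest percentiles were 2.69% and 95.4%. Members with control values between 100 and 110 kept a median of 22.6% (246 members), and transcripts just outside the rule, between 90 and 100, kept 21.2% (225 transcripts).

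On the spike-in scale 8153 members fell and 15 rose (edgeR quasi-likelihood test with Benjamini-Hochberg adjustment over 12298 coding transcripts, adjusted p under 0.05). Over all tested transcripts 91.1% fell and 0.203% rose. The number that rose was 9 without control replicate 1, 3 without control replicate 2, 8 without puromycin replicate 1 and 5 without puromycin replicate 2. Of the 15, 9 were replication-dependent histones, 1 was the immediate early gene Ier5, and the others were Zfp703, Eif2s3x, Gadd45g, Rpl27 and a transcript without a symbol in the annotation, ENSMUST00000099704, with an ORF of 408 nt. In all, 75 members had a puromycin mean above the control mean, namely 34 histones, 6 immediate early genes and 35 others. Both puromycin values lay above both control values in 43 of the 8532 members, all among these 75. Over all tested transcripts this held for 80 of 12298 (0.651%), so the share among members was no higher.

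To ask which genes kept or lost more than the typical member, the libraries were set so that the median member did not change. Against this median member 2495 members were higher after puromycin, 2288 were lower and 3749 passed the test in neither direction. Over all tested transcripts 29.4% were higher and 19.6% were lower. The split depends on where the line of no change is drawn. Of the called members 52.2% were higher here, but 40.8% with TMM scaling (1995 higher, 2892 lower), 43.7% with DESeq2 size factors (2116 and 2731) and 39.5% with equal total reads (1941 and 2967). The median log2 fold change of all members was 0.02 here and -0.18, -0.13 and -0.21 under these scalings. The relative log2 fold change given from here on is the change against the median member. Counts of higher and lower members in the gene lists below are to be read beside the 29.4% and 19.6% of all tested transcripts. The lists hold members only, of which 29.2% were higher and 26.8% lower.

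The members that kept most were short, and most were histones. Hist1h2bn, an H2B gene, had 178, 182, 567 and 685 footprints, so that both puromycin values lay far above both controls. Its share left was 348% and its relative log2 fold change 4.46 (SE 0.25, adjusted p = 9.12e-11 in edgeR). Hist3h2ba had 383, 259, 916 and 864 footprints (277%). The H2A gene Hist3h2a had 5020, 5247, 9748 and 10711 (199%), again without overlap between the groups. Hist1h2ah had 2418, 237, 3598 and 3326, and here the controls differed by more than the puromycin libraries did from the higher control. The standard error of Hist1h2ah was accordingly 0.57, beside a relative log2 fold change of 4.12. Hist1h2bc (7926, 3154, 8522 and 13236) and Hist1h2ad (2958, 936, 3675 and 3907) also had uneven controls. Histone genes of a class are near copies of each other, and the authors left out reads with several matches, so that values of single histone genes are uncertain.

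Outside the histones, Ier5 (chr1:155096361-155099636, minus strand), an immediate early gene, had 253, 192, 720 and 429 footprints. The groups did not overlap, 258% was left and the relative log2 fold change was 4.03 (SE 0.31, adjusted p = 2.69e-09 in edgeR). The zinc finger gene Zfp703 was listed with an ORF of 381 nt and had 106, 95.2, 300 and 231 footprints (264%). Most of its control footprints lay on what is listed as its 3' UTR, which did not rise (441, 425, 275 and 264). Eif2s3x, the X-linked subunit of eIF2, which brings initiator tRNA to the ribosome, had 196, 517, 771 and 637, with controls that were far apart. Gadd45g, a stress-inducible growth arrest gene, had 178, 118, 290 and 290.

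Among members with at least 1000 control footprints, those that lost most kept between 0.508% and 2.05%. Eef1a1, the elongation factor that delivers aminoacyl-tRNA, had 6959, 7070, 43.4 and 78.3 footprints. Only 0.868% was left, and the relative log2 fold change was -4.13 (SE 0.24, adjusted p = 9.49e-11 in edgeR). The RNA-binding proteins Hnrnpk (1082, 920, 6.2 and 7.46) and Syncrip (2790, 2415, 24.8 and 18.7) kept 0.682% and 0.835%. Rps3a3 (chr13:108670603-108671397, plus strand), a copy of the gene of ribosomal protein S3a, kept least of these, with 2150, 1599, 10.3 and 8.7 footprints (0.508%). Eef1a1, Hnrnpk and Rps3a3 have near copies in the genome, so their values share the uncertainty of the histones.

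Lamc1 (chr1:153218922-153332786, minus strand), the laminin γ1 chain, fell from 12068 and 10861 to 165 and 165 (1.44%, relative log2 fold change -3.45, SE 0.20, adjusted p = 9.12e-11 in edgeR). Lama5, the laminin α5 chain, had 6229, 6125, 93.1 and 114. The endocytic receptor Lrp2 (3271, 2800, 35.2 and 57.2), the basement membrane linker Nid1 (5347, 4444, 76.5 and 104) and the receptor Igf2r (4253, 3687, 74.4 and 88.3) kept between 1.52% and 2.05%. The guanylate-binding protein Gbp2b had 1430, 1411, 6.2 and 11.2, the H3K9 methyltransferase Setdb1 had 2365, 2099, 18.6 and 37.3, and Nt5dc2 had 2163, 1679, 22.7 and 28.6. In each of these genes both puromycin values lay far below both controls. The rule that named them required this on the scale of the median member, where 40.1% of all members met it. Another 3 members had no ORF read in either puromycin library. They were the deacetylase Hdac1 (105 and 112 control footprints), the integrin Itga9 (125 and 85.2) and the poly(A)-binding protein Pabpc4 (128 and 112), which were named after their values had been seen. For these, 3 counts over both puromycin libraries would be 2.14%, 2.22% and 1.93% of the control mean, by counting error only.

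**Figure D1:**
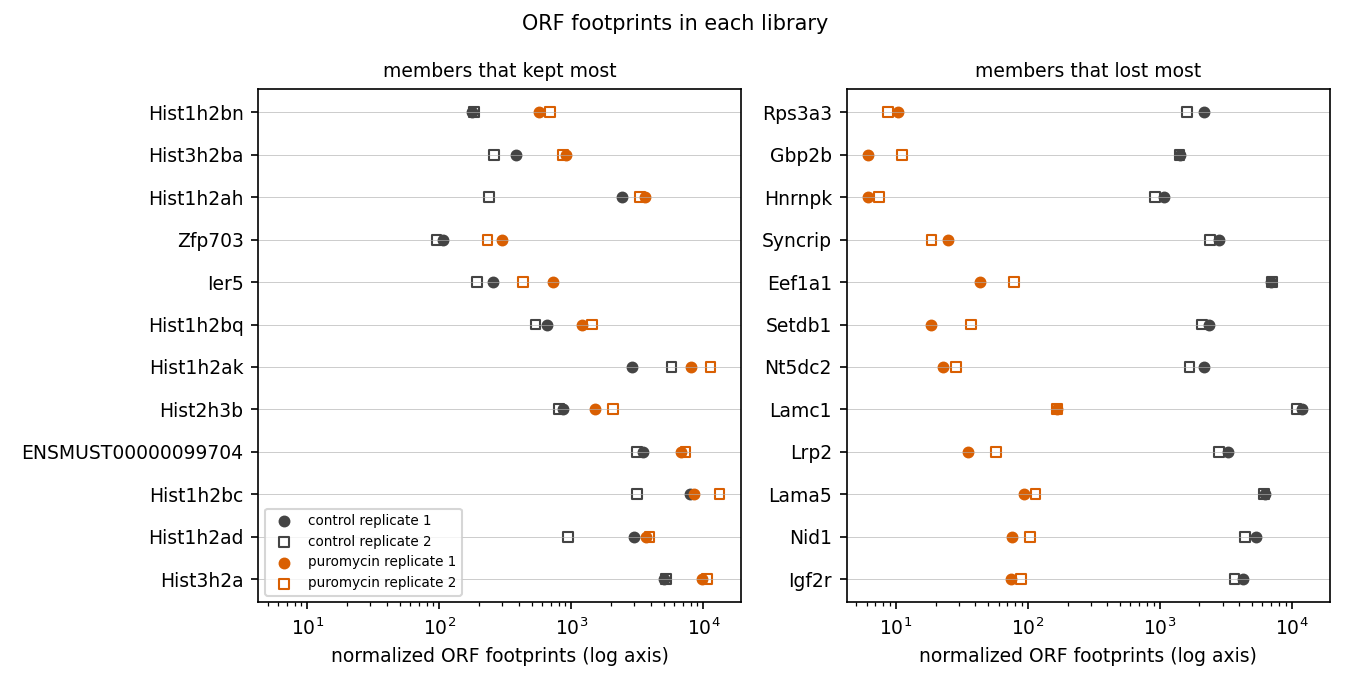
Normalized ORF footprints (log axis) of the 12 members with the largest relative increase (left) and, among members with at least 1000 control footprints, the 12 with the largest relative decrease (right), with one point per library. On the right both puromycin points lie far below both control points in every row. The rule that picked the rows required groups without overlap on the scale of the median member. On the left the controls of Hist1h2ah, Hist1h2bc and Hist1h2ad are far apart.

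The bases around the start codon are given for 4 members that kept most and 4 that lost most, because the border between 5' UTR and ORF footprints lies at this point. Sequences are from the GRCm38 reference with the GENCODE M21 transcript models, the strand is that of the transcript, and the capitals mark the start codon. The listed model of Hist1h2bn begins at the start codon itself.
Hist1h2bn (chr13:21754123-21754143, plus strand): ATGcctgaacccgctaagtcc
Hist3h2a (chr11:58954729-58954758, plus strand): cagtggaagATGtctggtcgtggcaagcag
Ier5 (chr1:155099410-155099439, minus strand): gaaggcaggATGgagttcaagctggaggct
Jun (chr4:95051251-95051280, minus strand): gaccgttctATGactgcaaagatggaaacg
Eef1a1 (chr9:78480634-78480663, minus strand): aaagcaaaaATGggaaaggaaaagactcac
Lamc1 (chr1:153332519-153332548, minus strand): cgcagcgggATGacgggcggcgggcgggcc
Lama5 (chr2:180225782-180225811, minus strand): agcaggaaaATGgcgaagcgcggagggcag
Igf2r (chr17:12769513-12769542, minus strand): ccacacgcgATGcgggccgttcagctggga

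An A or G stands at position -3, counted back from the A of the start codon, in Hist3h2a, Ier5, Eef1a1, Lamc1, Lama5 and Igf2r, and a T in Jun. It was found in 86.6% of the 6447 members with a 5' UTR whose listed ORF matches the annotated start and stop. Of these it was found in 81.3% of those higher than members of their ORF length, in 87.3% of those not called and in 90.1% of those lower. These shares are a description.

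The share left fell step by step with the length of the ORF. Members with ORFs of up to 300 nt kept a median of 52.4% (177 members, 50.2% and 51.6% in the puromycin libraries), and those of 300 to 600 nt kept 36.7% (888 members). Medians were 22.7% from 600 to 1000 nt (1501 members), 15.5% from 1000 to 2000 nt (3190) and 10.6% from 2000 to 4000 nt (2061). Longer ORFs kept 8.21% from 4000 to 6000 nt (449), 7.17% from 6000 to 8000 nt (154) and 5.62% above 8000 nt (112, 5.13% and 6.22% in the puromycin libraries). The largest SD between the puromycin libraries in any of these bins was 0.993 percentage points, in the shortest, less than the step to the next bin. Against the median member 168 of the 177 shortest were higher and 2 lower, while 87 of the 112 longest were lower and 2 higher.

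**Figure D2:**
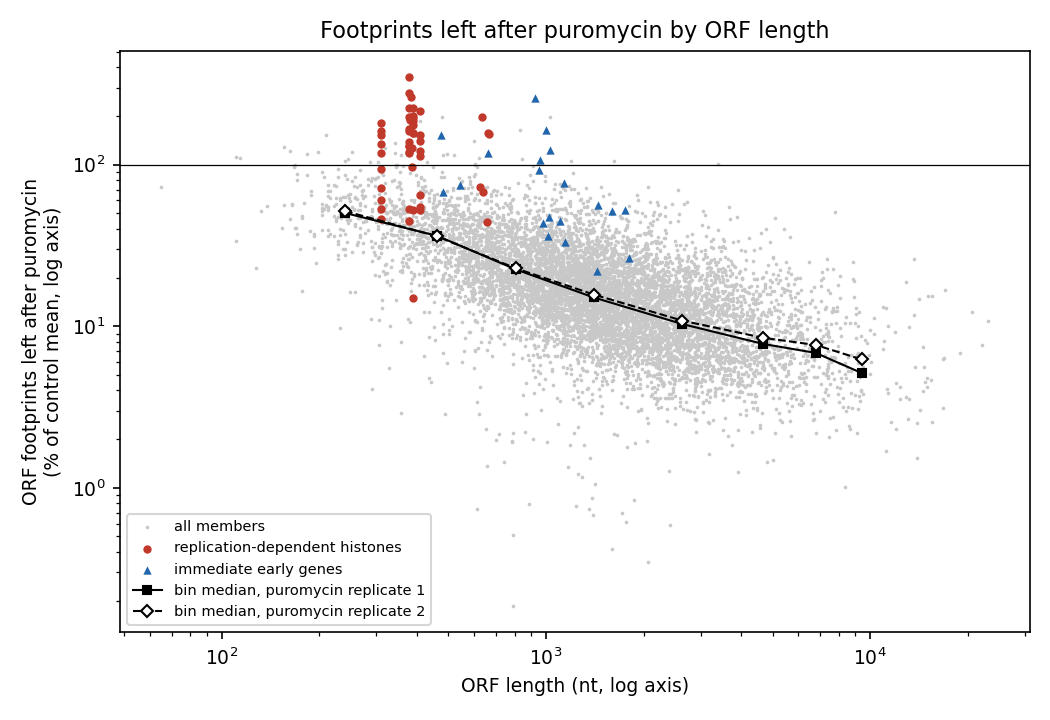
Share of control ORF footprints left after puromycin (log axis) against ORF length (log axis), with one grey point per member. Histones are red circles, immediate early genes are blue triangles, and the lines join the bin medians of each puromycin library. The bin medians fall from 52.4% in the shortest to 5.62% in the longest ORFs, and the horizontal line at 100% marks the control level. The 3 members without a puromycin read cannot be drawn on a log axis.

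Because of this trend each library was also fitted with a smooth curve over ORF length, so that a member was compared with members of its own length. On this length scale 1784 members were higher and 1745 lower, against 20.2% and 15.3% of all tested transcripts (edgeR, adjusted p under 0.05). The counts were 1157 higher and 1105 lower without control replicate 1, and 1153 and 1096 without control replicate 2. Ier5 stood furthest above the curve, with a length-scale log2 fold change of 3.63 (SE 0.29, adjusted p = 6.29e-09 in edgeR). Filip1l, with an ORF of 3393 nt, had 315, 266, 300 and 284 footprints, so that the groups overlapped and 100.5% was left (3.37 on the length scale). Among members with at least 1000 control footprints, Rps3a3 (-5.51), Hnrnpk (-4.49), Gbp2b (-4.36), Eef1a1 (-4.14) and Nt5dc2 (-3.70) lay furthest below the curve, with Syncrip between the last pair. Length-scale counts of the gene lists below are to be read beside the 20.2% and 15.3% of all tested transcripts. Among members alone these shares were 20.9% and 20.5%.

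Histone messages are made in S phase, carry no poly(A) tail and end in a stem-loop, and their genes have mostly 1 exon. The 50 replication-dependent histones among the members kept a median of 135%, with 113% and 150% in the puromycin libraries. Of these, 49 were higher than the median member (median relative log2 fold change 3.11), and 40 were higher and 1 lower than members of their length (median 1.73). On the spike-in scale 9 rose and 6 fell. The classes had medians of 113% for linker histones H1 (6 members), 167% for H2A (12), 149% for H2B (14), 117% for H3 (8) and 106% for H4 (10). Hist1h1b had 16529, 22202, 27340 and 32237 footprints, both puromycin values being above both controls. Hist1h1a had 27986, 28136, 15840 and 21922 (67.3%) and lay below its controls. The exception was Hist1h2af (991, 750, 124 and 136), which kept 14.9% and was lower than members of its length by 1.39 on the log2 scale (adjusted p = 1.16e-05 in edgeR), while its adjusted p against the median member was 0.816 in edgeR. By location, 42 of the 50 histone members lie on chromosome 13 (median 139%), 5 on chromosome 3 (60.1%), 2 on chromosome 11 (238%) and 1 on chromosome 6 (134%). The list median stayed between 2.89 and 2.96 under the other scalings.

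Immediate early genes are transcribed within minutes of a stimulus, and their messages are short-lived. All 20 members of this list were higher than the median member and higher than members of their length, with median log2 fold changes of 1.95 and 1.86. Their median share left was 61.9%, with 61.6% and 53.4% in the puromycin libraries. The AP-1 transcription factor Jun had 1214, 979, 1731 and 1847 footprints, with both puromycin values above both controls and 163% left. Its relative log2 fold change was 3.38 (SE 0.19, adjusted p = 9.12e-11 in edgeR). Junb (966, 938, 1336 and 999), Ier2 (2750, 2656, 3243 and 3145) and the antiproliferative gene Btg2 (462, 517, 908 and 587) also had both puromycin values above both controls.

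Most other immediate early genes had puromycin means below their control means. Fos, the partner of Jun in AP-1, had 169, 102, 86.9 and 123 footprints, and the groups overlapped. Egr1, a zinc finger transcription factor, had 978, 829, 548 and 389 (51.9%). The MAP kinase phosphatases Dusp1 (1144, 1069, 511 and 475) and Dusp6 (1276, 1329, 544 and 316) kept 44.6% and 33.0%. Among the genes of decay factors for AU-rich messages, Zfp36 (380, 348, 374 and 405) kept 107% and Zfp36l1 (435, 500, 174 and 165) kept 36.3%. Under each of the other scalings 19 of the 20 were higher, and the median of the list was between 1.73 and 1.81. The lowest was the transcription factor Klf10, with 1660, 1583, 337 and 374 (21.9%).

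**Figure D3:**
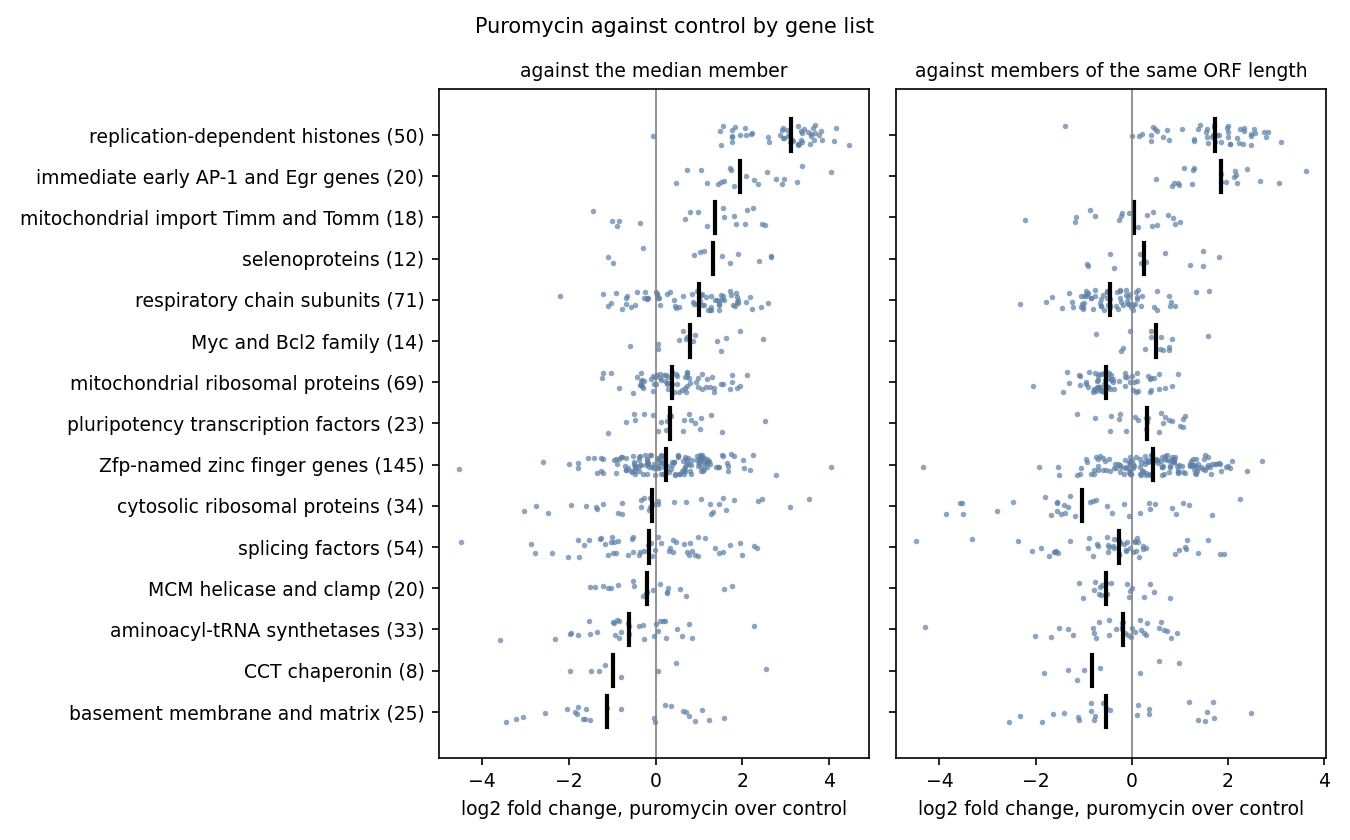
Log2 fold change of ORF footprints, puromycin over control, against the median member (left) and against members of the same ORF length (right). Each point is 1 member, the bar is the median of the list, and the number of members is in brackets. Apart from Hist1h2af, histones and immediate early genes lie to the right of 0 in both panels, whereas the respiratory chain and mitochondrial ribosome medians cross from the right of 0 to the left.

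For lists of short mitochondrial proteins the counts moved when ORF length was taken into account. The 71 subunits of the respiratory chain and ATP synthase kept a median of 31.5%, and 42 were higher and 11 lower than the median member. On the length scale their median was -0.46, with 7 higher and 30 lower. Cox6c, a small subunit of cytochrome oxidase, had 1068, 685, 846 and 800 footprints, whereas the complex I subunit Ndufs1, with an ORF of 2181 nt, had 3372, 3065, 70.3 and 143. Mitochondrial ribosomal proteins (69 members) kept 20.3%, and their count went from 30 higher and 4 lower to 4 higher and 33 lower on the length scale. Against the median member these counts were 23 and 12 with TMM, 26 and 8 with DESeq2 size factors and 22 and 14 with equal total reads. The import proteins of the Timm and Tomm families (18) kept 40.5%, with 13 higher and 3 lower than the median member and 5 in each direction on the length scale. Timm9, an intermembrane space chaperone of 267 nt, had 255, 338, 298 and 250, and the receptor Tomm70a, with 1833 nt, had 3402, 3349, 130 and 254. The groups overlapped for Timm9 and lay far apart for Tomm70a.

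Cytosolic ribosomal proteins, the building blocks of the ribosome that puromycin acts on, went both ways. The 34 members kept a median of 15.1%, and 13 were higher and 11 lower than the median member, against 29.4% and 19.6% of all tested transcripts. Given their short ORFs (median 465 nt) they lost more than others of their length, with a median of -1.02 on the length scale, 7 higher and 20 lower. Rpl8 had 26917, 23832, 3623 and 4670 footprints (16.3%), and Rpl4 had 15154, 13729, 730 and 1040 (6.13%). Rps20 (665, 1013, 24.8 and 23.6) and Rpl37 (863, 978, 35.2 and 39.8) lost nearly all, although their ORFs have only 357 and 291 nt. Rpl27 (362, 415, 897 and 545) was the highest and had both puromycin values above both controls, and Rplp1, a stalk protein, had 1027, 1192, 1164 and 1858. Most ribosomal protein genes have processed copies, so these values hold only the reads that match 1 place.

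The other genes of translation had no common direction. Of 14 members with a terminal oligopyrimidine tract outside the ribosome (TOP messages), 7 were higher and 4 lower than the median member, but 5 and 6 with TMM or equal total reads and 6 and 6 with DESeq2 size factors. They ranged from Npm1, the nucleolar histone chaperone (1648, 1327, 1088 and 1142), to Eef1a1. The elongation factor Eef2, which moves the ribosome along the message, had 34397, 34016, 1690 and 2564, and Rack1, a ribosome-bound scaffold, had 41744, 38491, 8104 and 10453. Of 11 genes of the cap-binding complex eIF4F and its cofactors 7 were higher and 2 lower, with 2 in each direction on the length scale, the lowest being the scaffold Eif4g1 (14664, 13433, 649 and 940) and the highest the 4E-binding protein Eif4ebp1 (1865, 1600, 676 and 1064). Among 33 other initiation factors 10 were higher and 11 lower, against 29.4% and 19.6% of all tested transcripts, so the higher count is near that share. The aminoacyl-tRNA synthetases, which charge tRNAs, had 4 higher and 18 lower of 33, with a median relative log2 fold change of -0.63 and a length-scale median of -0.18. Lars, the leucyl enzyme, had 11650, 9935, 500 and 683 footprints.

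Transcription factors of pluripotency kept a median of 19.9% (23 members), with 10 higher and 4 lower than the median member and 10 higher and 2 lower on the length scale. Over all tested transcripts the shares were 29.4% and 19.6%, and 20.2% and 15.3% on the length scale. Sox2, which shares targets with Oct4, had 3222, 3585, 1142 and 1045 footprints, and Nanog had 3992, 3319, 1090 and 931. Klf4, which had 447, 385, 120 and 145, and Klf2, which had 5351, 4750, 1555 and 2284, were higher than the median member and kept 31.9% and 38.01%. Pou5f1, which encodes Oct4, had 5404, 5757, 511 and 742 (11.2%). Sall4 was the lowest of the list, with 7455, 6989, 505 and 556 (7.34%). Dppa5a, a small RNA-binding protein of 354 nt, was the highest and fell only from 12298 and 11931 to 10908 and 10997. The groups overlapped in none of these genes.

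Of 14 members of the Myc network and the Bcl2 family 11 were higher than the median member and 1 was lower, with a median of 27.1% left. With TMM or equal total reads 7 were higher, and with DESeq2 size factors 9, with 1 lower in each. Myc had 1859, 1727, 616 and 450 footprints, and its relative Mycn had 5314, 5230, 1123 and 1447. The proapoptotic gene Bbc3 (134, 118, 68.2 and 144) was the highest, and Mcl1, an inhibitor of apoptosis, had 3319, 2534, 374 and 1135, its puromycin values lying far apart. Cyclins and their kinases (30 members) had 11 higher and 8 lower, against 29.4% and 19.6% of all tested transcripts and 29.2% and 26.8% of all members. Ccnd1, the cyclin of the G1 phase, had 3184, 3260, 1067 and 883, the kinase inhibitor Cdkn1a had 2414, 1911, 1847 and 2031, and Ccnb1, the cyclin of mitosis, had 331, 228, 10.3 and 7.46. The median of the cyclins was 0.05 against the median member, but between -0.09 and -0.17 under the 3 other scalings.

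Basement membrane and matrix genes, with a median ORF of 4392 nt, kept a median of 7.11% (25 members). Against the median member 7 were higher and 14 lower, and 7 were higher and 11 lower than members of their length. The lower ones in both comparisons included laminins and their partners, such as Lamc1, Lama5, Nid1 and the heparan sulfate proteoglycan Hspg2 (15360, 13354, 358 and 412). The higher ones on the length scale included the collagens Col1a1 (16909, 12974, 3685 and 3863), Col1a2 (3326, 2368, 831 and 839), Col4a1 (2300, 2098, 587 and 594) and Col4a5 (199, 174, 88.9 and 85.8). Col1a1 and Col1a2 kept 25.3% and 29.3%, while the laminin gene Lamb1 (8620, 7892, 536 and 383), with an ORF of 5358 nt beside 4359 and 4116 nt in these collagens, kept 5.56%. Fn1, fibronectin, had 50721, 42116, 4121 and 4290, with a length-scale value of 0.36 (adjusted p = 0.156 in edgeR, not called). Counted only over the 19 members whose ORF matches the annotation, 7 were higher and 9 lower, and the median relative log2 fold change was -0.04 instead of -1.13. On the length scale 7 of these were higher and 7 lower.

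Of the 8 subunits of the CCT chaperonin, which folds actin and tubulin, 5 were lower than the median member and 2 higher. Cct6a had 15064, 13022, 517 and 609 (4.01%), and Cct5 had 20545, 18249, 1106 and 1363. Cct4 (22516, 18549, 4262 and 4662) kept 21.7%, and Tcp1, which was listed with an ORF of only 309 nt, had 2657, 2020, 2087 and 2155. Over the 6 subunits whose ORF matches the annotation the median relative log2 fold change was -0.38 instead of -0.99.

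The members named for a Zfp zinc finger symbol (145 genes) had 64 higher and 15 lower on the length scale (median 0.45), and 56 higher and 26 lower than the median member (median 0.24, and between 0.01 and 0.09 under the other scalings). Selenoproteins, which read a UGA codon as selenocysteine, had 9 higher and 2 lower of 12 (median 1.32), and 5 higher and 2 lower on the length scale (median 0.25). The peroxidase Gpx1 (1454, 1813, 1524 and 1763) and Selenoh (618, 575, 676 and 509) kept all or nearly all footprints, and the thioredoxin reductase Txnrd1 had 3055, 3005, 223 and 261. Of 9 messages that are controlled by upstream ORFs in the integrated stress response 5 were higher and 1 lower. Atf4, its transcription factor, had 660, 563, 213 and 427, and its target Trib3 had 567, 468, 108 and 495, a value that was far apart between the puromycin libraries.

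The remaining lists are given by their counts, to be read beside the 29.4% higher and 19.6% lower of all tested transcripts. Among all members 29.2% were higher and 26.8% lower. Of 36 proteasome subunits 13 were higher and 7 lower, of 54 splicing factors 17 and 22, and of 47 nucleolar genes of ribosome biogenesis 12 and 21. Of 136 solute carriers 26 were higher and 37 lower, but 13 and 49 with TMM, 14 and 45 with DESeq2 size factors and 11 and 49 with equal total reads. The replicative helicase MCM and its partners (20) had 4 higher and 7 lower, and 1 higher and 11 lower on the length scale. Against the median member these counts were 3 and 9 with TMM, 3 and 8 with DESeq2 size factors and 2 and 9 with equal total reads. Heat shock proteins and chaperones of the endoplasmic reticulum (26) had 3 higher and 8 lower, among them Hsp90ab1 (71194, 63606, 3321 and 4479). The counts of this list were 3 and 12 with TMM or DESeq2 size factors and 3 and 13 with equal total reads. Of 13 glycolytic enzymes 2 were higher and 6 lower, the lowest being Ldha (2538, 2444, 101 and 78.3). The 14 tubulins had 3 higher and 4 lower, the 12 genes of DNA methylation and Tet enzymes 3 and 3, the 13 genes around Lin28 and microRNA processing 1 and 4, and the 4 polyamine and frameshift-regulated genes 1 and none. The medians of proteasome subunits, tubulins and polyamine genes were between 0.07 and 0.08 and turned negative under each of the other scalings.

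Summed over members, the ORFs kept 17.5% and 18.7% of the control mean in the puromycin libraries, the 3' UTRs 43.9% and 48.2%, and the 5' UTRs 106% and 95.0%. Of the members, 5421 reached 10 reads on the 5' UTR in any 2 footprint libraries, with or without drug, and were tested. Their median 5' UTR kept 107% (109% and 99.4% in the puromycin libraries), while the ORFs of the same members kept 16.3%. On the spike-in scale 35 of these 5' UTRs rose and 19 fell, against 0.587% and 0.406% of all tested 5' UTRs (edgeR, adjusted p under 0.05). Without control replicate 1, 5 rose and 3 fell, without control replicate 2 the counts were 4 and 3, without puromycin replicate 1 they were 4 and 4, and without puromycin replicate 2 they were 5 and 2. More than 50% of the footprints on the transcript lay in the 5' UTR in 1024 members with puromycin and in 79 in the control.

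**Figure D4:**
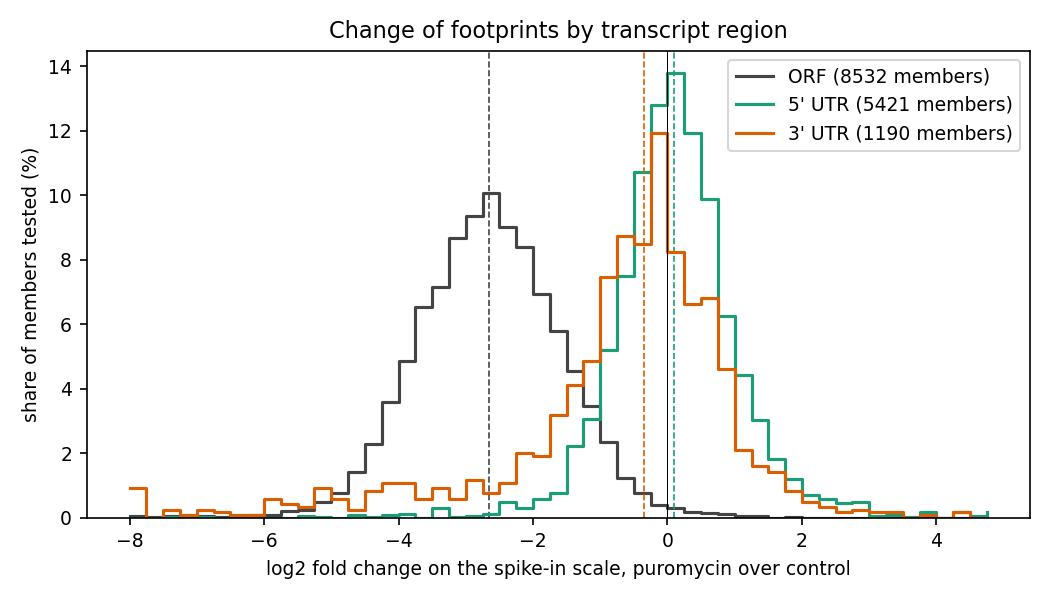
Distribution of the log2 fold change on the spike-in scale, puromycin over control, for ORFs, 5' UTRs and 3' UTRs of members, as a share of the members tested in each region. Dashed lines mark the medians, which are -2.65 for ORFs, 0.09 for 5' UTRs and -0.35 for 3' UTRs. Values beyond the ends of the axis are drawn in the end bars.

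Relative to its own ORF, the 5' UTR was higher with puromycin in 4713 of 5421 members and lower in none (limma on the log2 ratio, adjusted p under 0.05), against 81.6% and 0.0462% of all tested transcripts. At an unadjusted p under 0.05 the count of lower ratios was also 0, both in limma and in edgeR with the ORF reads as offset. It was 2 at the adjusted threshold without control replicate 1, without puromycin replicate 1 or without puromycin replicate 2. On simulated counts the limma test of this ratio called 54% of decreases of 2 on the log2 scale and 4% of decreases of 1. Small decreases could thus be missed. The median log2 change of the ratio was 2.72. It rose with ORF length, from 1.03 in ORFs of up to 300 nt to 4.28 in those above 8000 nt. The share left on the 5' UTR itself was 109% in the shortest and 105% in the longest ORFs, and the highest bin was 118%. Supt20, a subunit of the SAGA complex, had 299, 324, 263 and 251 footprints on its 5' UTR, whereas its ORF had 336, 334, 0 and 1.24.

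**Figure D5:**
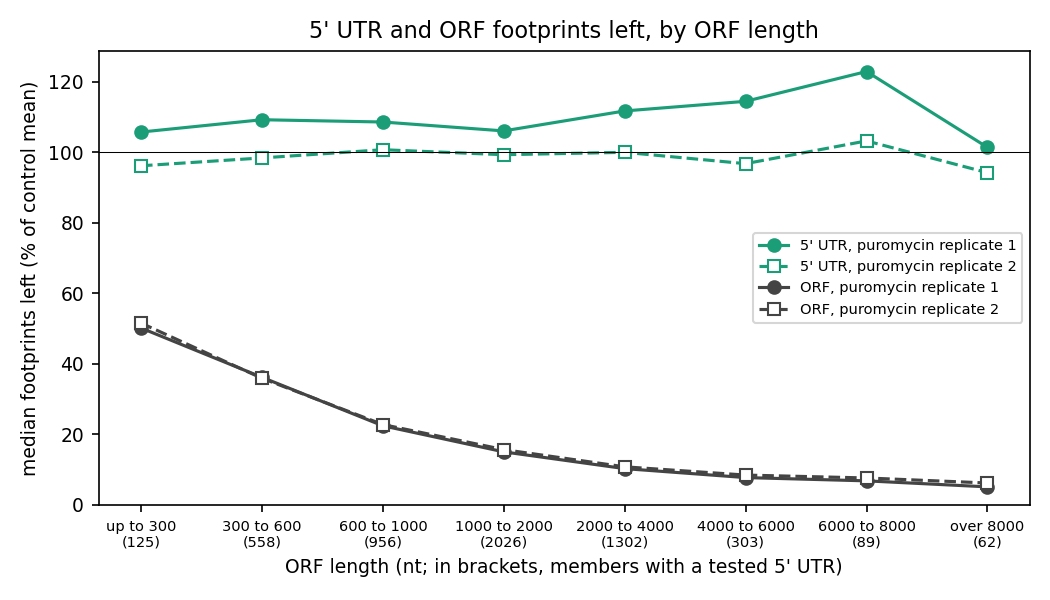
Median share of control footprints left on the tested 5' UTRs (green, their number in brackets) and on the ORFs of all members (grey), by ORF length bin, for each puromycin library. The ORF medians fall with ORF length, and the 5' UTR medians stay near the control level, which the horizontal line at 100% marks.

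The 35 5' UTRs that rose belonged to 6 immediate early genes, 1 histone and other genes. These and the next named 5' UTRs were chosen after their values had been seen. The 5' UTR of Jun, 951 nt long, had 503, 522, 3160 and 2055 footprints (log2 fold change 2.35, SE 0.45, adjusted p = 0.000136 in edgeR). That of Fos had 16.5, 6.35, 91.0 and 112, that of Egr1 had 38.9, 53.5, 236 and 211, and that of Junb had 190, 85.2, 529 and 413. Txnip, which binds thioredoxin, had 266, 234, 914 and 1163 on its 5' UTR, and the phosphatase gene Dusp4 had 360, 469, 1985 and 1423. In these 6 genes both puromycin values were above both controls. A 5' UTR was tested if any 2 footprint libraries reached 10 reads, so some could enter only through drug libraries. The 5' UTR of Fos had fewer than 10 reads in control replicate 2 and was tested only because drug libraries counted too. How many of the 35 entered in this way was not tested. The ORFs of the 35 did not share a direction, since 19 were higher and 10 lower than the median member. Over all tested coding transcripts 29.4% of ORFs were higher and 19.6% lower. Hsp90ab1, whose ORF kept 5.79%, had 150, 179, 486 and 608 on its 5' UTR.

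Among the 19 5' UTRs that fell, Nt5dc2 (385, 347, 6.2 and 9.95) and Tnks1bp1, which binds tankyrase (373, 300, 2.07 and 12.4), lost nearly all footprints and lost those of the ORF as well. Wdr61 had 566, 583, 151 and 127 on the 5' UTR. Sppl3, an intramembrane protease, had 249, 247, 35.2 and 37.3 there, and its ORF kept 14.6% (adjusted p = 0.735 against the median member in edgeR).

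On the 3' UTR 1190 members could be tested. On the spike-in scale 20 rose and 167 fell, against 1.92% and 16.7% of all tested 3' UTRs, and the counts ranged from 4 to 11 and from 48 to 128 when single libraries were left out. They were 8 and 48 without control replicate 1, 4 and 60 without control replicate 2, 11 and 128 without puromycin replicate 1, and 6 and 128 without puromycin replicate 2. Relative to the ORF 705 were higher and 92 lower, against 55.7% and 9.51% (limma, adjusted p under 0.05). Without either control replicate the count of lower ratios was 43. By ORF length the median log2 change of the ratio rose from 0.09 in ORFs of up to 300 nt (76 members, 14 higher and 13 lower) to 3.65 from 4000 to 6000 nt (41 members, 38 higher), with 3.43 and 2.89 in the 2 longer bins. In the shortest ORFs the 3' UTR kept 54.9% and the ORF 54.0%. Of the 20 that rose 9 were histones. A 3' UTR was tested if any 2 of the 8 footprint libraries reached 10 reads, so some entered only through drug libraries. Among these was Hist1h1d, with 2.36, 0.906, 24.8 and 41.0 footprints there. The linker histone Hist1h1c had 18.9, 19.9, 105 and 147 footprints past its stop codon. The others included the metallothioneins Mt1 (88.4, 51.7, 170 and 269) and Mt2 (66.0, 66.2, 240 and 270), which bind metal ions, and Id3, a dominant negative partner of helix-loop-helix factors (41.3, 39.0, 130 and 137).

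Of the 167 3' UTRs that fell, 97 belonged to members whose ORF was higher than the median member and 30 to members whose ORF was lower, and 16 had no puromycin read. Over all tested coding transcripts 29.4% of ORFs were higher and 19.6% lower. The 167 had shorter ORFs (median 852 nt) than the 1190 tested (1188 nt), and short ORFs were mostly higher. Hjurp, the chaperone of the centromeric histone, was listed with an ORF of 267 nt and had 1101, 998, 26.9 and 26.1 footprints on what is listed as its 3' UTR, against 294, 187, 112 and 245 on the ORF. Arhgap11a had 581, 479, 12.4 and 7.46 on the 3' UTR, and Zscan10, a transcription factor of embryonic stem cells, had 380, 386, 0 and 9.95. Eapp, with a listed ORF of 168 nt, had 250 and 228 in the controls and no read with puromycin, while its ORF had 120, 150, 108 and 162. The listed ORF is that of 1 transcript model per gene. Among these 167 members it did not match the annotated start and stop in 24, against 293 of the 1190 tested.

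Puromycin was also set directly against harringtonine, which stops ribosomes just after initiation, each relative to its own median member. The drugs acted for different times, 20 and 10 min, so the comparison is of these treatments as given. After puromycin 1155 members were higher and 1666 lower than after harringtonine, against 11% and 15.6% of all tested transcripts (edgeR, adjusted p under 0.05). With the length curve as offset, chosen after seeing the data, the counts were 1386 and 1446. Of the 20 immediate early genes 11 were higher after puromycin and 1 lower, and of the 145 Zfp genes 44 were higher and 11 lower. Histones did not share a direction, with 9 higher and 13 lower of 50. In ORFs above 8000 nt puromycin left a median of 5.62% and harringtonine 7.92%. Of these 112 members 48 were lower after puromycin and none was higher (edgeR), with 56 and 2 at an unadjusted p under 0.05.

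Other properties went along with the share left less steeply than ORF length, and only the last of them uses the control footprints of the rule. Members with 1 exon kept a median of 35.1% (177 members), or 23.8% without the histones (129). The medians without histones were 31.0% for 2 exons, 29.1% for 3 to 5, 18.7% for 6 to 10 and 10.9% for more than 10, and the median ORF was 1068 nt with 1 exon and 2280 nt with more than 10. Within ORFs of over 900 and up to 1500 nt and without histones the medians still ran from 29.1% for 1 exon (52 members) over 23.4%, 21.4% and 17.0% to 15.6% for more than 10 exons (696). The GC content of the ORF went the other way, with 13.6% left in the lowest and 19.2% in the highest of 5 equal groups, and with 15.9% and 20.5% within ORFs of 900 to 1500 nt. The length of the 5' UTR made little difference, with 14.8% left below 25 nt (464 members) and 15.99% above 1000 nt (81). Of the members with a 5' UTR and a matching ORF model, 48.6% had an ATG in the 5' UTR, with 55.0% of those higher on the length scale, 48.2% of those not called and 43.1% of those lower. Members with more control footprints per transcriptome read kept more, from 13.4% in the lowest to 22.03% in the highest of 5 equal groups, but their median ORF shortened from 2583 to 837 nt. Control footprints are also the divisor of the share left, so this property and the share left are not independent.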

How the data were processed

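Ribosome footprints were sequenced as stranded SOLiD libraries, 2 each of control, puromycin, harringtonine and DMDA-PatA cells. Per the labels and methods, the authors aligned reads to mm10 with LifeScope, used Picard 1.38, left out reads with several matches, placed footprints by the ribosomal P site and counted them per ORF, 5' UTR and 3' UTR of listed transcripts. The deposited values are a normalized signal, reads times 1 factor per library that sets spike-in RNA equal. Loss of spike-in RNA in a library would move all its values alike.

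Division by that factor gave whole reads for all footprint values within 0.02. The tests had been planned for counts, and so these reads were tested with edgeR 4.0.16 (quasi-likelihood, R 4.3.3) over all 8 footprint libraries with the contrast puromycin minus control, for features that reached 10 reads in 2 or more libraries. Offsets were the spike-in factors, the median member, or the median member with a loess curve on log10 ORF length. UTR to ORF ratios were tested with limma 3.58.1 on log2 values with an added 0.5 reads. P-values were adjusted by Benjamini-Hochberg over all coding transcripts tested, and calls are at an adjusted p under 0.05. On simulated counts with known changes of 2 on the log2 scale, the test against the median member called 100% of increases and 98% of decreases. Among changes of 1 it called 90% of increases and 68% of decreases. The limma test of the 5' UTR to ORF ratio called 62% of increases and 54% of decreases of 2. Among changes of 1 the ratio test called 10% of increases and 4% of decreases. In the ratio simulation the spread was fixed, changes lay only on 5' UTRs with many control reads, and ORFs fell no more than 5' UTRs. Its rates need not hold for the real counts. Alternatives included DESeq2 1.42.0, limma on log2 values, other scalings, filters and cutoffs, and leaving out each library.

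Named were members with the largest calls in each fit (12 each way against the median member, 10 raised on the spike-in scale, 6 each way in the others; decreases needed 1000 control footprints, except in the ratios) and, per gene list, members with the most control footprints and the highest and lowest change. The 12 each way also needed both puromycin libraries on the same side of both control libraries, scaled to the median member. Other genes were named for their known role after their values had been seen. One gene that the rule names is not reported here. The members and lists were chosen with earlier results of these data known. Of the members 8480 were found in GENCODE M21 (GRCm38), which gave symbols, positions and sequences, and 52 were not. Intervals and floors cover counting error only. Same-numbered control and puromycin libraries did not deviate together (r = -0.005 over 6587 transcripts), so replicate numbers were not used as pairs. The transcriptome libraries served only for footprints per transcriptome read.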

Additional observations from a re-analysis of the deposited data

How the results depend on the processing

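For genes named by rule, no change called in the main fit or the alternative reversed direction where the alternative tested the gene. Changes called in neither fit and genes named after their values had been seen were not covered. The medians of the whole set depend on the spike-in scale. Equal total reads make the summed ORF footprints the same in all libraries, and the median inhibition is then 1.15 fold. It was 7.64 fold at a cutoff of 500 control footprints, and 5.97 to 6.63 fold when single libraries were left out. With single libraries left out, calls ranged from 1953 to 2147 higher and 1766 to 1968 lower against the median member, from 1153 to 1421 and 1096 to 1345 on the length scale, and from 3 to 9 raised on the spike-in scale. For 5' UTRs they ranged from 4 to 5 raised and 2 to 4 lowered, for 3' UTRs from 4 to 11 and 48 to 128, for lower 5' UTR to ORF ratios from 0 to 2, and for lower 3' UTR to ORF ratios from 43 to 90. Of the raised histones, Hist1h2bn kept its spike-in call in each of these. The cause of these losses was not tested, beyond the smaller number of libraries.

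In the fit of the control and puromycin libraries alone, 38 members were raised on the spike-in scale, 76 5' UTRs rose and 85 fell, 1 ratio of 5' UTR to ORF was lower and 330 ratios of 3' UTR to ORF were higher. With the spike-in factors of the other 2 drugs exchanged 33 members were raised. For 5' UTRs limma gave 84 and 34, DESeq2 gave 29 lowered, and no filter on low counts gave 12 lowered. No filter gave 7 raised 3' UTRs. The replicate block, with the replicate number as a term, gave 13 raised and 9 lowered 5' UTRs and 1 lower ratio of 5' UTR to ORF, and left the other counts within 1.5 times, with 2480 higher and 2295 lower against the median member. The cause was not tested.

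At a cutoff of 50 control footprints the median left was 37.4% in ORFs of 300 to 600 nt, 23.4% to 1000 nt and 15.99% to 2000 nt. At 500 the medians were 35.3%, 20.7% and 13.4% there, 9.08% to 4000 nt, 6.95% to 6000 nt and 6.46% to 8000 nt. At 50 the list medians that moved were 33.3% for Timm and Tomm, 15.0% for TOP messages, 13.4% for splicing factors, 20.2% for Zfp genes, 15.98% for cyclins, 38.4% for stress response messages, 36.3% for polyamine genes, 11.1% for glycolytic enzymes, 15.96% for tubulins and 16.8% for DNA methylation. At 500 they were 18.5% for mitochondrial ribosomal proteins, 31.4% for Timm and Tomm, 13.2% for other initiation factors, 11.5% for solute carriers, 12.2% for Zfp genes, 52.2% for immediate early genes, 25.1% for Myc and Bcl2, 15.98% for cyclins, 10.7% for tubulins, 11.5% for DNA methylation, 5.13% for basement membrane and 12.3% for Lin28 and microRNA genes. These cutoffs change which transcripts are members. In single puromycin libraries the list medians ranged from 27.4 to 31.2% for the respiratory chain, 38.2 to 40.3% for Timm and Tomm, 16.8 to 17.7% for the proteasome, 7.87 to 8.24% for CCT, 25.8 to 28.6% for eIF4F, 13.8 to 14.2% for other initiation factors, 17.3 to 19.3% for TOP messages, 12.3 to 12.97% for nucleolar genes, 18.1 to 19.5% for Zfp genes, 53.4 to 61.6% for immediate early genes, 28.1 to 29.1% for Myc and Bcl2, 10.5 to 10.9% for glycolytic enzymes, 14.9 to 15.9% for tubulins and 12.5 to 13.96% for Lin28 and microRNA genes.

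Depth limits single members most in the puromycin libraries, where the median member had 38 and 65 reads.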

Other observations

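Besides histones and immediate early genes, 35 members had a puromycin mean above the control mean, and the genes given here were picked from these after their values had been seen. They included all 3 Gadd45 genes, which are induced by growth arrest and DNA damage. Gadd45a had 401, 349, 364 and 502 footprints in control replicates 1 and 2 and puromycin replicates 1 and 2, and Gadd45b had 185, 293, 300 and 247. In both the groups overlapped, whereas in Gadd45g (178, 118, 290 and 290) they did not. The helix-loop-helix genes Id3, a target of BMP signalling (1184, 1089, 1183 and 1424), and Hes1, a target of Notch (683, 473, 653 and 602), had overlapping groups. In their relative Bhlhe40, a transcriptional repressor listed with an ORF of 396 nt, both puromycin values lay above both controls (723, 543, 988 and 908). Mt1, a metallothionein, had 6182, 6461, 6243 and 8530, and Txnip had 2895, 2489, 2461 and 3207.

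H2afx, a histone gene outside the replication-dependent list whose product marks DNA breaks, had 6410, 5271, 5708 and 6445 footprints (104%). Serp1, a stabilizer of the translocon of 198 nt, had 500, 487, 649 and 538, Bola2, of 162 nt, had 226, 247, 298 and 276, and Urm1, a ubiquitin-like protein, had 295, 293, 261 and 351. Both puromycin values lay above both controls in Serp1 and Bola2.

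The proteasome subunit Psma4 lost nearly all ORF footprints, with 1158, 916, 10.3 and 29.8. A zinc finger gene with fewer footprints, Zfp654, had 256, 220, 2.07 and 1.24, or 0.696% left.

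Within groups by control footprints the share left also differed by ORF length. Control footprints are also the divisor of the share left, so the order of these groups may be partly built in. In ORFs of 1000 to 2000 nt the medians left were 18.0%, 15.6% and 13.1% from the lowest to the highest of 3 groups by control footprints, which were divided at 293 and 804 footprints. Above 8000 nt they were 9.46% (25 members), 5.73% (24) and 5.04% (63). In the lowest group the order turned between the bins of 4000 to 6000 nt (10.4%, 100 members) and 6000 to 8000 nt (12.3%, 21 members).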
